A study of Mus musculus with 10 samples.

Results

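Translation initiation factor genes encode the proteins that place a ribosome on the start codon of an mRNA. They were followed through 5 sorted fractions of mouse embryonic stem (ES) cells. The members were the rows whose symbol begins with Eif1 to Eif6, leaving out Eif2ak2, Eif2s3y and Eif2s3x, and 51 rows matched. Of these, 50 reached at least 1 FPKM (fragments scaled to transcript length and to the mapped fragments of the library) in at least 1 fraction, among 13595 rows that did so in the whole table. The row that stayed below was Eif4e1b, a relative of the cap-binding protein gene with a known role in oocytes, at 0.0852 to 0.543 FPKM.

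All cells were of the E14Tg2a.4 line. A line with a knock-in reporter in each of Esrrb and Tbx3, which encode transcription factors that support naive pluripotency, was sorted into cells without either signal (double-negative), cells with the Esrrb signal alone (single-positive) and cells with both (double-positive). Another line with a piggyBac reporter driven by a Zscan4c promoter fragment gave Zscan4-negative and Zscan4-positive cells, the latter a rare state that carries transcripts of the early embryo. Where 5 values are listed below, they follow the order double-negative, single-positive, double-positive, Zscan4-negative, Zscan4-positive. The labels name 2 libraries per fraction, collected on different days, but the table holds 1 merged value per fraction, so no difference here has an SD, a p-value or a replicate check, and read depth is unknown. Neither the number of clones behind each line nor the culture medium is given in the sources used here.

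Initiation begins when eIF2, carrying GTP and the initiator tRNA, joins the small ribosomal subunit together with eIF1, eIF1A, eIF3 and eIF5. The eIF4 factors recognise the mRNA cap, unwind the leader and recruit this complex, which then scans to a start codon. Kinases that phosphorylate the alpha subunit of eIF2 and proteins that hold the cap-binding factor eIF4E are the main brakes of the pathway, and ES cells are known for a low rate of translation relative to their differentiated progeny. Only RNA was measured here, so protein levels, phosphorylation and translation itself are outside these data.

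The sorted genes followed the labels: along the first 3 fractions Esrrb was at 43.3, 177 and 243 FPKM and Tbx3 at 0.638, 1.75 and 12.6 FPKM, and along the other two Zscan4c was at 0.255 and 120 FPKM. All 6 ES cell markers examined were present in every fraction, with summed levels of 4040 to 6502 FPKM. Markers of other cells stood out in 2 columns. The 10 fibroblast markers summed to 1735 and 1227 FPKM in the double-negative and single-positive columns, against 20.9 to 29.8 in the other 3 fractions, with Dcn and Lum under 1 FPKM everywhere. The 7 T-lineage markers summed to 528 and 382 FPKM there, against 20.4 to 33.6 in the others. Of 6 primitive endoderm markers, summing to 1.90 to 12.4 FPKM, Gata4, Gata6, Sox17 and Sox7 were under 1 FPKM in every fraction. In such bulk samples fewer cells of a type and less RNA per cell cannot be told apart. A profile of 484 rows ran this way, at no more than 0.1 of their double-negative level in each of the last 3 fractions. Its rule also required a single-positive to double-negative ratio of 0.5 to 1, so this ratio was bounded in advance. Within those limits the median ratio was 0.701 (middle 95% of rows 0.565 to 0.865).

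Most initiation factor genes were abundant and differed little between the fractions. In every fraction 24 of the 50 were at 100 FPKM or more, and only Eif3j1 stayed under 5 FPKM throughout. The ratio of a member's highest to its lowest fraction had a median of 1.27, was under 1.5 for 43 members, and was over 2 for 3: Eif2s2, Eif4e3 and Eif3j1. The shares under 1.5 and over 2 are not given for all rows compared. Among the 35 members averaging 50 FPKM or more the median ratio was 1.2545, against 1.3162 for all 2053 rows at that level. Of these members 91.4% had a ratio under 1.5, against 72.3% of those rows, a difference that was not tested. The lowest value lay in double-negative cells for 31 members (62.0%), as it did for 32.0% of all rows compared and 56.6% of rows averaging 50 FPKM or more. The highest lay in Zscan4-positive cells for 21 members (42.0%, against 22.0% and 22.7%) and in double-positive cells for 13 (26.0%, against 21.1% and 32.2%). These counts move with the scale of the columns: the FPKM of all rows summed to 507495, 522869, 552117, 531091 and 551767, lowest in double-negative cells, and with equal totals 25 members had their lowest value there and 13 their highest in Zscan4-positive cells.

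**Figure D1:**
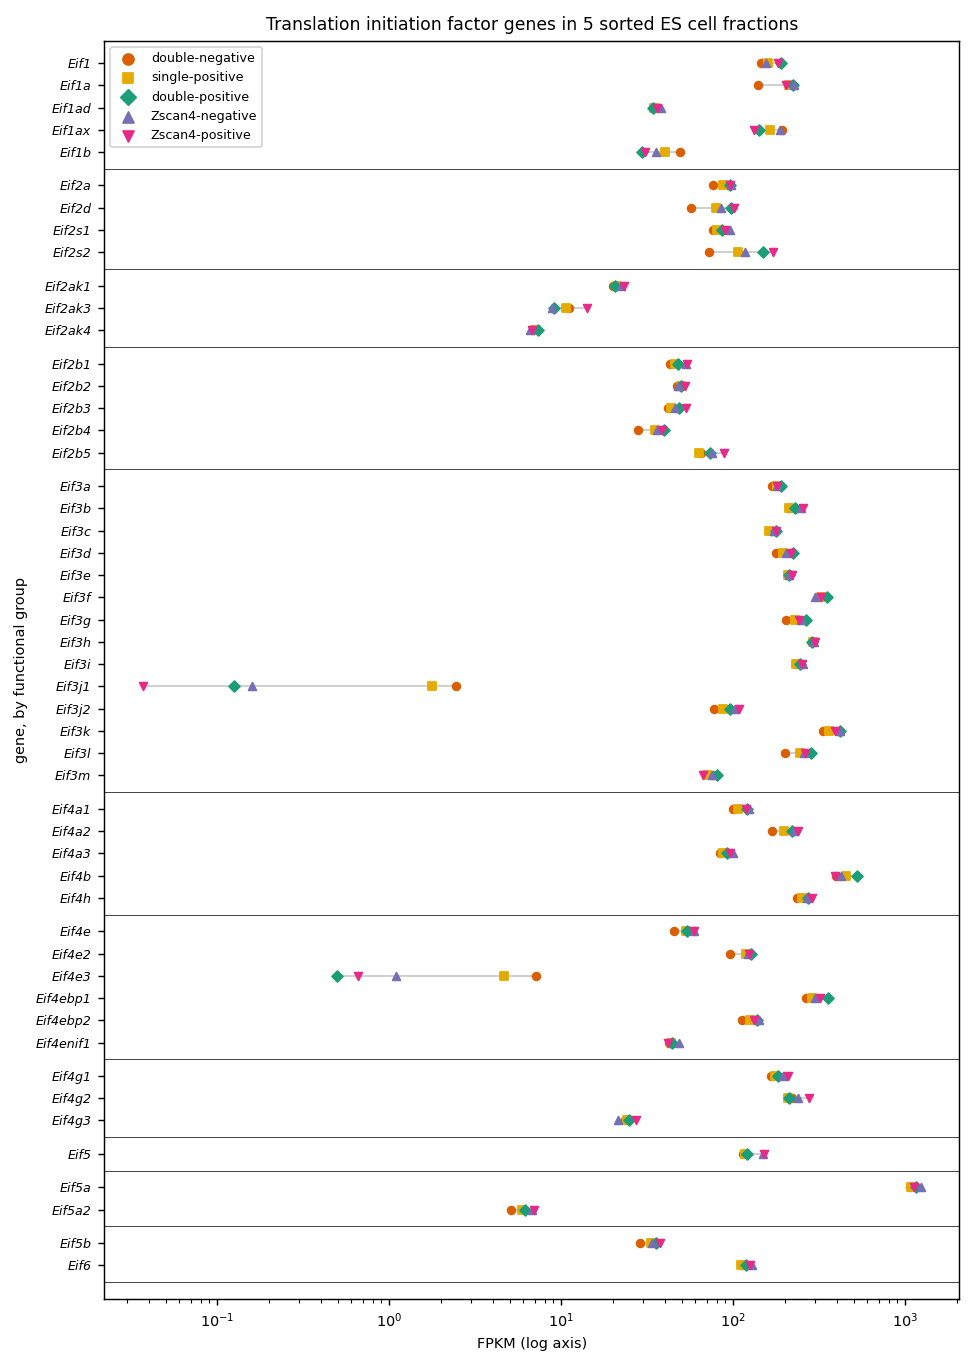
FPKM (log axis) of the 50 members in each of the 5 fractions, grouped by function, with a grey line from the lowest to the highest fraction of each gene. Eif4e3 and Eif3j1 span the widest range, with their highest points in double-negative and single-positive cells, while 43 genes stay within 1.5-fold.

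Differences between fractions are log2 values of FPKM + 1, and members are counted where they differed at least 2-fold or at least 1.5-fold on that scale. Comparing double-positive with double-negative cells asks what accompanies the whole Esrrb and Tbx3 range. At least 2-fold higher in double-positive cells was 1 member, Eif2s2, where 3.81% of all rows compared were, and at least 2-fold lower were 2, Eif4e3 and Eif3j1, where 12.2% of all rows were. At 1.5-fold, Eif2d and Eif1a joined the higher side, making 3 (9.92% of all rows), and Eif1b joined the lower side, also making 3 (20.5% of all rows). The member median was 0.16, against -0.02 over all rows, and 42 of 50 members were above 0, where 48.5% of all rows were. Abundant rows as a whole were also shifted upward: the 35 members averaging 50 FPKM or more had a median of 0.21, and all 2053 rows at that level had 0.20. Of these members 91.4% were above 0, against 73.9% of those rows, a difference that was not tested. With equal column totals 30 of the 50 members were above 0 (60.0%), against 38.7% of all rows and 61.2% of rows averaging 50 FPKM or more. With median-ratio scaling 45 of the 50 were (90.0%), against 54.3% and 80.3%.

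In the Esrrb step (single-positive against double-negative), no member reached 2-fold in either direction (1.82% of all rows were higher and 1.43% lower). Eif1a alone reached 1.5-fold, on the higher side (5.1% of all rows), and none did on the lower side (5.49%). In the Tbx3 step, double-positive against single-positive cells, none reached 2-fold or 1.5-fold on the higher side (0.346% and 1.68% of all rows). Eif4e3 and Eif3j1 were at least 2-fold lower (6.94% of all rows), and no further member was at least 1.5-fold lower (12.4%). Member medians were 0.07 in the Esrrb step and 0.10 in the Tbx3 step, against -0.02 and 0.01 over all rows, and against 0.09 and 0.11 over the rows averaging 50 FPKM or more. These 3 comparisons share columns, so they are not separate evidence.

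Along double-negative, single-positive and double-positive cells, 34 members were higher at each step and 6 lower at each step: Eif1ad, Eif1ax, Eif1b, Eif2ak3, Eif3j1 and Eif4e3. Higher at each step were thus 68.0% of the members, against 34.8% of all rows, and lower at each step were 6 of 50, against 37.2% of all rows. Among those averaging 50 FPKM or more, 74.3% of members and 61.1% of rows were higher at each step. With the columns scaled to equal totals, 21 members (42.0%) were higher at each step, against 25.5% of all rows and 44.9% of rows averaging 50 FPKM or more. Lower at each step were then 14 members (28.0%), against 45.1% and 25.8%. The member median between the ends was then 0.036, Eif2s2 was at 0.91 and thus short of 2-fold, and Eif1a was at 0.55 and thus short of 1.5-fold.

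In the Zscan4 sort, Zscan4-positive against Zscan4-negative cells, no member reached 2-fold (3.46% of all rows were higher and 0.875% lower). Eif2ak3 was the only member at least 1.5-fold higher (7.61% of all rows), and none was at least 1.5-fold lower (3.59%). With equal column totals 0 members reached 1.5-fold on the higher side. The member median was 0.03, against -0.01 over all rows and -0.04 over rows averaging 50 FPKM or more. Above 0 were 30 of 50 members (60.0%), against 48.2% and 42.4% of those rows. With equal column totals 19 of 50 members were above 0 (38.0%), against 41.4% and 32.5%.

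**Figure D2:**
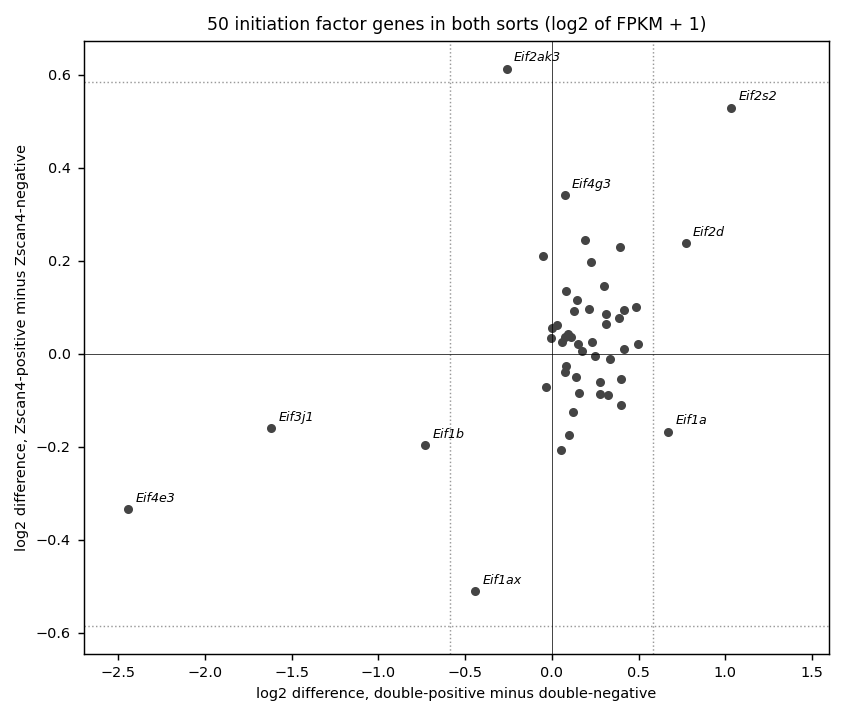
Each point is 1 of the 50 members, with its log2 difference between double-positive and double-negative cells on the x axis and between Zscan4-positive and Zscan4-negative cells on the y axis; dotted lines mark 1.5-fold. Most points lie inside the dotted square, Eif2s2 is at 1.03 and 0.53, and Eif4e3 is farthest to the left at -2.44.

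**Figure D3:**
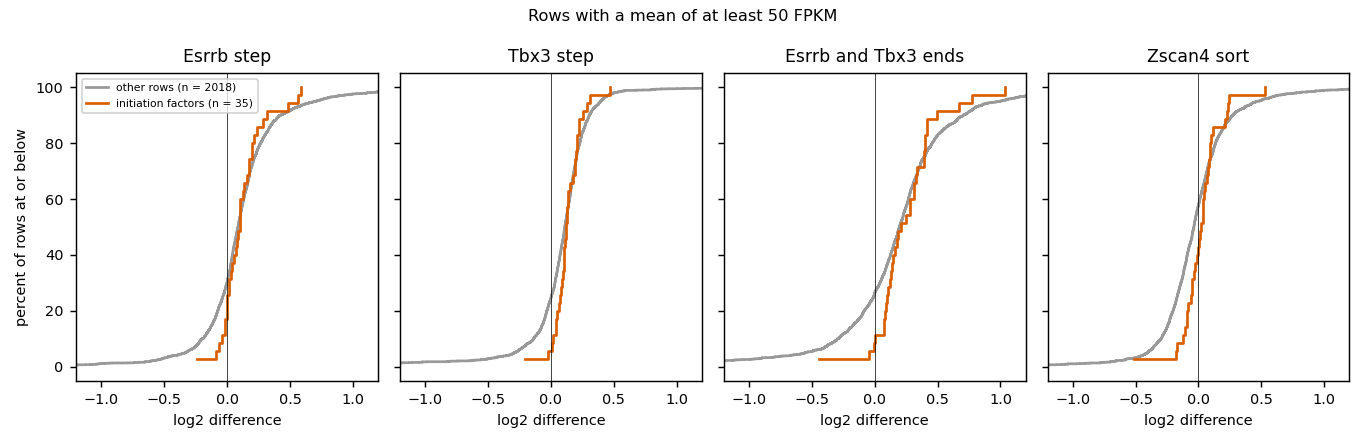
Cumulative percent of rows (y axis) at or below each log2 difference (x axis) in the 4 comparisons, for the 35 members and the 2018 other rows averaging 50 FPKM or more. The member curves cross the middle close to the grey curves, with medians of 0.10, 0.12, 0.21 and 0.02. In each comparison the members span less between their quartiles than all 2053 rows at that level.

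Among the factors that bind the initiator tRNA, Eif2s2 had the largest difference, and Eif2d also passed 1.5-fold between the ends, while Eif2s1 and Eif2a did not. Eif2s2, which encodes the beta subunit of eIF2 (chromosome 2, 154871410 to 154892935, minus strand; GENCODE M21 on GRCm38, the assembly also called mm10), was at 71.9, 107, 148, 117 and 170 FPKM. It was thus lowest in double-negative cells, and higher in the reporter-positive fraction of each sort, by 0.57 in the Esrrb step, 0.47 in the Tbx3 step and 0.53 in the Zscan4 sort, and by 1.03 between the ends. Its coding sequence has 1 near-identical pseudogene copy, which can share reads with it. Eif2s1, which encodes the alpha subunit that the stress kinases phosphorylate, had a narrower range, at 76.7, 79.8, 85.7, 95.3 and 89.8 FPKM. The ratio of Eif2s2 to Eif2s1 was 0.938, 1.34, 1.73, 1.23 and 1.89. Both encode subunits of the same complex, and FPKM is per length. Eif2s1 has 2 near-identical pseudogene copies and Eif2s2 has 1, and how reads shared with them were counted is not stated, so the level of this ratio is uncertain.

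Eif2d and Eif2a encode factors that can deliver initiator tRNA without the eIF2 complex. Eif2d (chromosome 1, 131153181 to 131187658, plus strand) was at 56.6, 79.5, 97.4, 85.2 and 101 FPKM. It had its lowest value in double-negative cells, with a difference of 0.77 between the ends, 0.48 in the Esrrb step and 0.24 in the Zscan4 sort. Its exons overlap those of Rassf5 on the other strand, and the counting is not stated to use strand. Rassf5 was at 8.39, 6.94, 1.90, 0.963 and 1.48 FPKM, and the part of its reads in the Eif2d values was not tested. Eif2a was at 76.0, 87.4, 96.0, 96.7 and 95.9 FPKM, with differences of 0.33 between the ends and -0.01 in the Zscan4 sort.

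The eIF2B complex recharges eIF2 with GTP. Its 5 subunit genes were all above 0 between the ends, by 0.08 (Eif2b2) to 0.49 (Eif2b4), and all higher in Zscan4-positive than in Zscan4-negative cells, by 0.02 (Eif2b1) to 0.24 (Eif2b5), with none past 1.5-fold. Over all rows 48.5% and 48.2% were above 0, and 73.9% and 42.4% of rows averaging 50 FPKM or more. With equal column totals 4 of the 5 were above 0 in each comparison, Eif2b2 falling to -0.04 between the ends and Eif2b1 to -0.03 in the Zscan4 sort. At that scaling 38.7% of all rows and 61.2% of rows averaging 50 FPKM or more were above 0 between the ends. In the Zscan4 sort 41.4% and 32.5% were. Eif2b4, the delta subunit gene and the least abundant, was at 28.0, 35.1, 39.7, 35.8 and 38.5 FPKM. Eif2b5, which encodes the catalytic epsilon subunit and was the most abundant, was at 64.4, 63.5, 73.6, 74.7 and 88.6 FPKM, so the subunit genes were not at equal levels in any fraction.

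**Figure D4:**
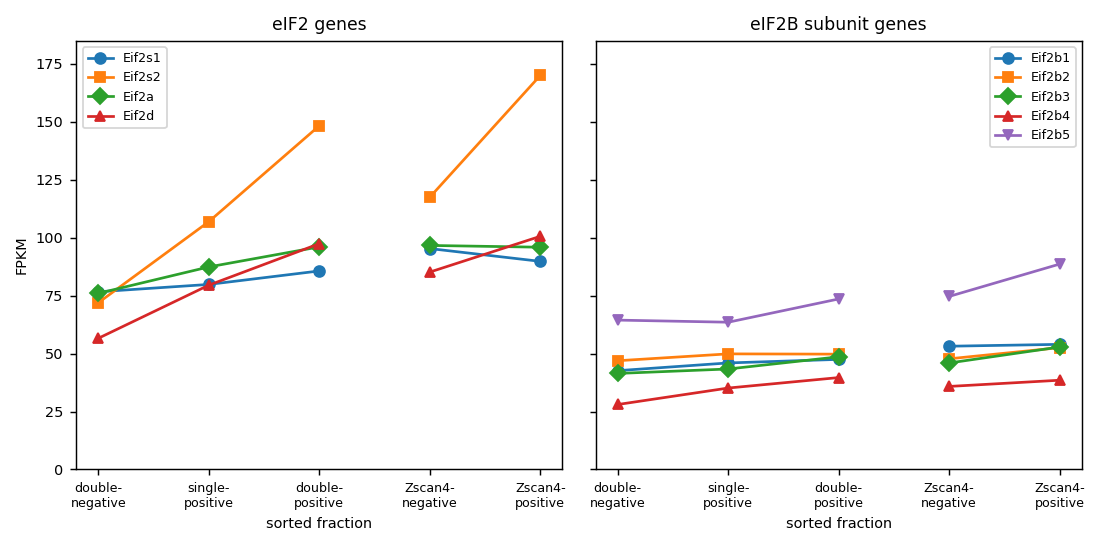
FPKM (y axis) of the genes of eIF2 and of factors with a related role (left) and of the eIF2B subunits (right) in the 5 fractions; lines join fractions of the same reporter line. Eif2s2 runs from 71.9 to 148 FPKM across the Esrrb and Tbx3 fractions and from 117 to 170 in the Zscan4 sort, while the eIF2B genes stay between 28.0 and 88.6 FPKM.

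The eIF2 kinase genes among the members number 3, and each kinase answers a different stress. Eif2ak3 (chromosome 6, 70844515 to 70905245, plus strand) encodes PERK, the kinase of endoplasmic reticulum stress, and was at 11.0, 10.7, 9.03, 8.81 and 14.01 FPKM. Zscan4-positive cells were the highest fraction, with a difference of 0.61 in the Zscan4 sort and -0.26 between the ends. Eif2ak1, the heme-regulated kinase gene, stayed at 20.1 to 23.2 FPKM. Eif2ak4 encodes GCN2, the kinase of amino acid shortage, and stayed at 6.60 to 7.28 FPKM.

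The small factors that keep the scanning complex open, eIF1 and eIF1A, come from pairs of related genes whose levels ran in opposite directions along the Esrrb and Tbx3 fractions. Eif1a (chromosome 18) was at 139, 209, 222, 227 and 202 FPKM. Eif1ax (chromosome X, 159372178 to 159389928, plus strand), with a coding sequence that matches Eif1a at 85.6% of 432 aligned bases, was at 192, 163, 141, 187 and 131 FPKM. Eif1a has 1 near-identical coding copy, Gm8332, with which it can share reads. Eif1a was thus lowest and Eif1ax highest in double-negative cells, with differences of 0.67 and -0.44 between the ends. In the Zscan4 sort both were lower in the positive cells, with differences of -0.51 for Eif1ax and -0.17 for Eif1a. Eif1ax made up 58.0%, 43.7%, 38.8%, 45.2% and 39.4% of the summed Eif1a and Eif1ax FPKM, while that sum stayed between 331.5 and 414 FPKM.

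Eif1 and Eif1b showed a like split. Eif1, the main start-codon gatekeeper gene, was at 145, 159, 190, 155 and 182 FPKM, with a difference of 0.39 between the ends. Its coding sequence has 13 near-identical copies in the annotation, 12 of them pseudogenes, so its level is uncertain. Eif1b (chromosome 9, 120492232 to 120495330, plus strand) was at 49.3, 39.9, 29.3, 35.3 and 30.7 FPKM, highest in double-negative cells, with a difference of -0.73. Eif1b ran in the direction of the fibroblast and T-lineage markers, with a single-positive to double-negative ratio of 0.81, and Eif1ax likewise with 0.847. Both ratios lie inside the range of the profile, but its rule bounded that range in advance, so this does not tie them to it. Neither gene belongs to the profile, since both kept most of their level in the other fractions. Whether fibroblast or T-lineage cells had a part in the 2 differences was not tested. Eif1ad, an eIF1A domain protein gene, stayed at 34.1 to 37.9 FPKM.

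Genes that resemble Eif1ax were looked for by sequence, after values of such genes had been seen. Its coding sequence matched 22 other annotated genes, 20 of them on chromosome 12, and 7 of these are in the table, in 8 rows under Gm symbols or BB287469, none of them a member by name. Their identity to Eif1ax was 83.6% to 85.0%. The start of the coding sequence shows how close they are. The first 120 bases are given for Eif1ax and for Gm5662 (chromosome 12, 88270640 to 88274500, minus strand) and Gm2016 (chromosome 12, 87874072 to 87877859, plus strand), from the GENCODE M21 transcripts. Capitals mark bases that differ from Eif1ax, 20 in Gm5662 and 19 in Gm2016.
Eif1ax: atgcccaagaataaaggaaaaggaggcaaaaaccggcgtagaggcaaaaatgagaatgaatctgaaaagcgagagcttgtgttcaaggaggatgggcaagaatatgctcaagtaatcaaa
Gm5662: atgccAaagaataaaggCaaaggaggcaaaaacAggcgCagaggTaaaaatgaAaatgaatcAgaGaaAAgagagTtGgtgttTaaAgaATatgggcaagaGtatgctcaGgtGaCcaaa
Gm2016: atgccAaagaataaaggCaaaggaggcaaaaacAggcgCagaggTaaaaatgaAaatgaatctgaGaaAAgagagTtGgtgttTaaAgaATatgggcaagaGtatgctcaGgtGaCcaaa

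These copies were almost confined to Zscan4-positive cells among the 5 fractions. Gm5662 was at 191 FPKM there and at 0.171 to 2.04 FPKM in the other 4, and Gm2016 was at 72.8 FPKM there and at 0.107 to 0.615 FPKM elsewhere. Of the 8 rows 7 were at least 2-fold higher in the Zscan4 sort, and Gm21319, at 0.433 FPKM, was not. Summed over the 8 rows they stood at 2.18, 0.620, 6.49, 0.824 and 650 FPKM. In the last fraction the 2 members Eif1a and Eif1ax together were listed at 333 FPKM. The copies share reads with each other, and Gm8332, the near-identical copy of Eif1a, belongs to the same group on chromosome 12 and has no row in the table, so the split among the copies is uncertain and Eif1a may hold reads of them.

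**Figure D5:**
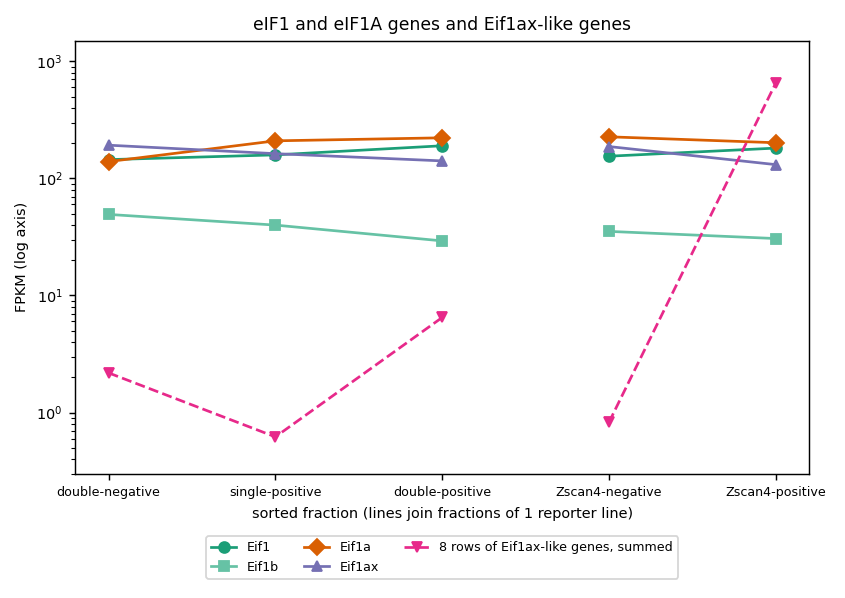
FPKM (log axis) of Eif1, Eif1b, Eif1a and Eif1ax and the summed FPKM of 8 rows of Eif1ax-like genes on chromosome 12 in the 5 fractions; lines join fractions of the same reporter line. Eif1ax is above Eif1a only in double-negative cells, and the summed copies are at 650 FPKM in Zscan4-positive cells and at 6.49 or less in the others.

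The eIF3 complex is the scaffold that binds the small ribosomal subunit, and its 14 genes held some of the steadiest members. Without Eif3j1 the subunit genes ran from 75.1 to 334 FPKM in double-negative cells with a median of 201, and the median was 228 FPKM in double-positive and 240 FPKM in Zscan4-positive cells. Eif3e was at 209 to 218 FPKM across all 5 fractions and Eif3h at 286 to 300. Between the ends 12 of the 14 were above 0, with a median of 0.13, where 48.5% of all rows and 73.9% of rows averaging 50 FPKM or more were above 0. With equal column totals 7 of the 14 were above 0, against 38.7% of all rows and 61.2% of rows averaging 50 FPKM or more. As deposited, the largest differences were those of Eif3l (0.50), Eif3g (0.40) and Eif3k (0.33). Eif3k was the most abundant at 334 to 419 FPKM, and Eif3m, apart from Eif3j1, the least at 66.8 to 80.4. In the Zscan4 sort no eIF3 gene differed by more than 0.12 upward or -0.17 downward.

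Eif3j1 and Eif3j2 encode the loosely attached j subunit. Eif3j1 has 8 exons (chromosome 2, 122028546 to 122056598, plus strand) and Eif3j2 has 1 (chromosome 18), and their coding sequences are 100% identical over 781 aligned bases, so reads cannot be split between them with confidence. The table puts nearly all of the signal on Eif3j2, at 77.1, 87.2, 96.1, 103 and 108 FPKM. Eif3j1 was at 2.45, 1.76, 0.124, 0.158 and 0.0369 FPKM. Eif3j1 was thus above 1 FPKM only in the 2 fractions where fibroblast and T-lineage markers were high. Its single-positive to double-negative ratio was 0.721. It is the 1 member among the 484 profile rows, out of 13595 rows compared. Summed, the pair was at 79.6, 88.9, 96.2, 103 and 108 FPKM.

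Among the factors that act at the cap, the helicase genes and their helpers were above 0 in 5 of 5 members between the ends. Over all rows 48.5% were above 0 there, and 73.9% of rows averaging 50 FPKM or more. Eif4a2 encodes an eIF4A helicase and was at 167, 197, 219, 225 and 237 FPKM. Its relative Eif4a1, with 3 near-identical pseudogene copies, was listed lower, at 99.3, 107, 121, 123 and 118 FPKM. Eif4b, which stimulates the helicase, was at 396, 453, 521, 421 and 390 FPKM and had its highest value in double-positive cells, with differences of 0.40 between the ends and -0.11 in the Zscan4 sort. Eif4h stayed at 234 to 287 FPKM, and Eif4a3, a helicase of the exon junction complex and not of initiation, at 83.1 to 99.2.

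Cap-binding genes differed in level more than between fractions, with an exception. Eif4e, the main cap-binding gene, was at 45.3, 52.8, 54.1, 59.3 and 59.1 FPKM, and Eif4e2, whose product binds caps and acts in repression, at 95.1, 119, 128, 122 and 123. Eif4e3 (chromosome 6, 99625135 to 99666771, minus strand) was at 7.15, 4.67, 0.497, 1.09 and 0.657 FPKM. Its differences were -1.92 in the Tbx3 step and -2.44 between the ends, and its values were high only where fibroblast and T-lineage markers were high. Its single-positive to double-negative ratio was 0.653, and with the profile's limit set at 0.25 of the double-negative level, Eif4e3 belongs to it as Eif3j1 does. At that limit 804 of the 13595 rows compared belong to the profile, and 2 of the 50 members. The rule bounds this ratio in advance. Whether cells of those types had a part in the Eif4e3 and Eif3j1 values was not tested.

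Repressors of eIF4E were abundant throughout. Eif4ebp1, an mTOR target whose product releases eIF4E when phosphorylated, was at 265, 285, 354, 300 and 321 FPKM, with a difference of 0.42 between the ends, and Eif4ebp2 at 113, 125, 137, 141 and 133 FPKM. The 2 binding-protein genes together were at 7.44 to 9.07 times the FPKM of Eif4e across the fractions, with the highest ratio in double-positive cells. Eif4enif1, which carries eIF4E into the nucleus, stayed at 41.7 to 48.3 FPKM.

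The eIF4G scaffolds bridge the cap and the ribosome. Eif4g1 was at 166, 175, 182, 194 and 207 FPKM. Eif4g2, which encodes the related DAP5 and is known to be needed for ES cell differentiation, was at 219, 209, 211, 238 and 275 FPKM, highest in Zscan4-positive cells with a difference of 0.21 in that sort. Eif4g3 was at 23.6, 24.1, 24.9, 21.3 and 27.3 FPKM, with a difference of 0.34 there. All 3 scaffold genes were thus higher in Zscan4-positive than in Zscan4-negative cells and differed by -0.05 to 0.13 between the ends, none past 1.5-fold. In the Zscan4 sort 48.2% of all rows and 42.4% of rows averaging 50 FPKM or more were above 0.

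No late-acting factor reached 1.5-fold in any comparison. Eif5a encodes the hypusine-modified factor that also serves elongation, and it was the most abundant member, at 1059, 1073, 1154, 1226 and 1124 FPKM. Its relative Eif5a2 was at 5.10 to 6.91 FPKM. Eif5, which triggers GTP hydrolysis by eIF2, was at 115, 118, 121, 148 and 152 FPKM, so its 2 higher values were those of the Zscan4 reporter line. Eif5b, which joins the large subunit, was at 28.8 to 37.5 FPKM, and Eif6, which keeps the subunits apart, at 111 to 129.

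Other genes of translation were counted in the same way. Of 37 listed regulators of initiation 36 were compared, and none reached 2-fold on the log2(FPKM + 1) scale in any comparison. Between the ends 2 were at least 1.5-fold higher and 2 lower (9.92% and 20.5% of all rows), with a median of 0.17: the deoxyhypusine hydroxylase gene Dohh (0.59) and the poly(A)-binding protein inhibitor gene Paip2b (0.66) were higher, and the stress factor gene Ddit3 (-0.76) and Paip1 (-0.75), a partner of poly(A)-binding protein, were lower. In the Zscan4 sort 2 were higher and 1 lower, near the share of all rows (7.61% and 3.59%), with a median of 0.06. Paip2b was at 79.4 against 39.5 FPKM, a difference of 0.99 that stays under 2-fold only with the pseudocount, and Ppp1r15a, which encodes the phosphatase subunit that reverses eIF2 phosphorylation, at 37.4 against 18.9. Tsc2, an mTOR inhibitor gene, was at 35.7 against 65.7 FPKM. In the Esrrb and Tbx3 steps none of the 36 reached 1.5-fold, with medians of 0.06 and 0.10. Of 14 listed elongation and termination factor genes 13 were compared, with a median of 0.21 between the ends and 0.02 in the Zscan4 sort, and none reached 2-fold. Eef1e1 (0.59) was at least 1.5-fold higher between the ends, only just past the limit (9.92% of all rows passed it). Eef2k, the kinase gene that inhibits elongation, was at least 1.5-fold lower there (-0.92) and in the Tbx3 step (-0.63). Of all rows 20.5% and 12.4% were.

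Promoter windows of RefSeq (GRCm38.p6), from 220 bases before to 30 after the first listed start of each gene, were read for 40 members, and motifs were searched on both strands. Each motif was searched on its own, and neighbouring matches may share end bases. CCGGAA, the core bound by ETS factors, was present in 20 of the 40 windows, against 25.8% of 9837 windows of compared genes and 13.8% of all 27025. CACGTG, the E-box that MYC can bind, was present in 8 of the 40, against 9.41% and 6.48%. CCAAT was present in 13 (32.5%, against 36.1% and 34.0%). AAGGTCA, a site of the kind ESRRB binds, was present in none, where 2.58% and 3.84% held it. These are matches of letters, not binding sites. Windows are printed for Eif2s2 and Eif2d, the members highest in double-positive relative to double-negative cells, and for Eif1ax, which ran the other way, up to 30 bases past the GENCODE gene start. Capitals mark CCGGAA read on the other strand (TTCCGG).
Eif2s2 (chr2:154892906-154893126, minus strand): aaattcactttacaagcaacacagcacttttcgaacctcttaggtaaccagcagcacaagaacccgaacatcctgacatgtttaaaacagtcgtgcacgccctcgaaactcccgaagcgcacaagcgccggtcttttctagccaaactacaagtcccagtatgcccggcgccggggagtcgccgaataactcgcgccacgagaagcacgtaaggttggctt
Eif2d (chr1:131152987-131153210, plus strand): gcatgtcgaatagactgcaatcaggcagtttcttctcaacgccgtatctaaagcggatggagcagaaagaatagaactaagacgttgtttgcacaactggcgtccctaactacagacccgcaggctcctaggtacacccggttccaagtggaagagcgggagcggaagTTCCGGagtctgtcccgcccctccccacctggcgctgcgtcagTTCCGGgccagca
Eif1ax (chrX:159371958-159372207, plus strand): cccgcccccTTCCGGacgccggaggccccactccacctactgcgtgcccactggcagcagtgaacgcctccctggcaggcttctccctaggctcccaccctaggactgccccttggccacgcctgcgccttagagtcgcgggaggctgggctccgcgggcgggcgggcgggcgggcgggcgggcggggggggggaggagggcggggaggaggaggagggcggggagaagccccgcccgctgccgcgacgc

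Eif2s2, the member with the largest positive difference, held none of the 4 motifs in its window. Eif2d held CCGGAA in 2 places and Eif1ax in 1. Eif1b, not printed, held CCGGAA and CACGTG, so CCGGAA was present on both sides of 0.

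An mRNA with a terminal oligopyrimidine tract begins with a run of C and T. This class is known to be translated under mTOR control and includes ribosomal protein mRNAs. The runs counted here extend to both sides of the annotated start, so part of each lies before the mRNA, and they do not by themselves mark such a tract. Runs of at least 8 bases over the annotated start were present in 3 of the 40 windows, 7.5%, against 4.04% of windows of compared genes. They are shown with the run in capitals, from 15 bases before the start.
Eif2b5: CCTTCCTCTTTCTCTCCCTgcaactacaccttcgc
Eif3f: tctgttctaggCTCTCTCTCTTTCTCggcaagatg
Eif3l: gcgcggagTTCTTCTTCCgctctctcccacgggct

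The runs are 21, 15 and 10 bases long, and that of Eif2b5 begins before the stretch shown. In Eif2b5 and Eif3l most of the run lies before the annotated start, and in Eif3f most lies from the start onward. In RNA level these 3 genes differed by 0.19, 0.15 and 0.50 between the ends and by 0.24, 0.12 and 0.02 in the Zscan4 sort, within the range of the other members.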

How the data were processed

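RNA sequencing of 10 libraries from 5 fractions was deposited by the authors as 1 table of FPKM, with 1 value per fraction for each of 32361 rows, although it is titled as counts. The submitters' processing notes name Cuffdiff 2.2.1, Cufflinks, TopHat2 2.0.14, bcl2fastq 1.8.4 and the mm10 assembly. No source used here states the annotation, how the 2 libraries of a fraction were merged, or the strand setting. How reads that map to several places were treated is not stated either, and Rps6, a ribosomal protein gene, is listed at only 3.63 to 5.40 FPKM.

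Differences are log2(FPKM + 1), which understates those of low genes, over the 13595 rows that reached 1 FPKM somewhere, called at 2-fold and 1.5-fold. No test was possible with 1 value per fraction. Members and lists were chosen with earlier results of these data known. Genes were named by a rule: members past 1.5-fold, the highest and lowest of each functional group, and paralog pairs. Further members were named after their values were seen. A search for numbered Eif1ad copies by symbol and synonym found none. Coding sequences of members were matched to all GENCODE M21 transcripts with blastn 2.17.0. A near-identical copy has at least 95% identity over 150 bases: 14 of 50 members had such a copy, and 13 overlap exons of a gene on the other strand. Computations used Python 3.11.15, pandas 2.3.3, numpy 2.4.6 and matplotlib 3.10.9, and were tested on simulated data. Alternatives covered the pseudocount, the filter, 2 scalings, summed rows and, added after seeing the data, members without the profile.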

Additional observations from a re-analysis of the deposited data

How the results depend on the processing

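No paired analysis was possible because the table holds 1 merged value per fraction, and no replicate could be left out for the same reason. Scaling the columns to equal FPKM totals gave a median of all rows between the ends of -0.12 instead of -0.02, and the member values shifted with it. The member median in the Zscan4 sort was then -0.023 instead of 0.025, that between the ends 0.036 instead of 0.16, that in the Esrrb step 0.032 instead of 0.075 and that in the Tbx3 step 0.023 instead of 0.10. It left 0 members at least 1.5-fold higher in the Esrrb step, 0 at least 1.5-fold higher in the Zscan4 sort and 0 at least 2-fold higher between the ends, where Eif2s2 was then at 0.91. Median-ratio scaling moved the member medians the other way, to 0.24 between the ends, where Eif2s2 was then at 1.12. It gave 2 members at least 1.5-fold higher in the Esrrb step. A pseudocount of 0.1 gave 1 member at least 1.5-fold lower in the Esrrb step and 2 in the Zscan4 sort. With at least 5 FPKM required, which removes Eif3j1, 1 member was at least 2-fold lower and 1 at least 1.5-fold lower in the Tbx3 step, and 1 at least 2-fold lower between the ends. Without Eif3j1 and Eif4e3, the members of the wider profile, an alternative chosen after seeing the data, 0 were lower at either fold in the Tbx3 step, 0 at least 2-fold and 1 at least 1.5-fold lower between the ends. The scalings and the filter act by their construction, and other causes were not tested. With no replicate values and unknown depth, differences as small as most of these cannot be told from variation between libraries.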
